A study of Homo sapiens with 24 samples.

Results

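The comparison set 3 RNA-seq libraries of U937 cells carrying SUV39H1 hairpin 2 against 3 libraries carrying SUV39H1 hairpin 4, 6 of the 24 libraries in the series, chosen by their labels alone. U937 is a human myelomonocytic line used as a model of immature monocytes. Both hairpins are short hairpin RNAs brought in by lentivirus, and the labels give 3 days of puromycin selection for cells with SUV39H1 hairpins. Both are labelled as targeting SUV39H1, so the comparison asks what differs between cells in which SUV39H1 RNA was lowered to a similar extent. These libraries do not measure SUV39H1 protein or H3K9 methylation. Cells with a scrambled hairpin (3 libraries) served as the outside level, and the labels give no selection for them. The series as a whole addressed disruption of the SUV39H1, G9a and GLP complex. No hairpin sequence, insertion site or driving promoter is given in the sources used here, and each hairpin is a single construct. The labels do not say that replicates were separate cultures, so p-values measure only the spread between these samples, which may be technical.

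SUV39H1 is a histone methyltransferase that adds methyl groups to lysine 9 of histone H3 (H3K9), mainly to make the trimethyl form found in silent heterochromatin. SUV39H2 is its paralog, and EHMT2 (G9a) with EHMT1 (GLP) mainly make the dimethyl form. Loss of H3K9 methylation can open repeats and genes that are normally kept silent. Short hairpins are processed by DICER1 and loaded into Argonaute proteins, and hairpins to 1 target can differ in the other transcripts they touch.

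The 6 libraries held 31545854 to 53803704 counts on genes, with the hairpin 4 libraries at 44082278 and above and the hairpin 2 libraries at 40069499 and below. The first principal component of the 9 libraries held 66.8% of the variance and placed the hairpin 2 libraries at 45.2 to 47.7, the hairpin 4 libraries at 9.71 to 11.5 and the scrambled libraries at -59.2 to -55.2. Hairpin 4 stood apart on the second component, which held 13.2%. The myeloid markers named for the line were present. Among them were ELANE at 780 and 518 CPM with hairpins 2 and 4 and LYZ, lysozyme, at 2476 and 1318 CPM. MPO, another granule enzyme, reached only 1.75 and 1.10 CPM. CPM here are TMM-scaled, as they are throughout except for the total counts on repeats. Markers listed at 0 in all libraries were 8 of 17 erythroid and megakaryocyte genes (GATA1 among them), 2 of 18 lymphoid genes (CD3D and CD7) and 7 of 17 epithelial and fibroblast genes (EPCAM and COL3A1 among them). The summed level of the lymphoid list was 647 to 666 CPM with hairpin 2, 561 to 580 CPM with hairpin 4 and 468 to 499 CPM with the scrambled hairpin, most of it from CD4 and NKG7. Its members did not move together. Of 6 tested, CD4 and NKG7 (33.3%) were called higher with hairpin 2 than with hairpin 4 and 3 (50%) were called lower. The shares of all genes were 20.9% and 22.0%. Among the lower were PAX5 (13.6, 18.3 and 30.7 CPM with hairpin 2, hairpin 4 and the scrambled hairpin) and CD79A (10.6, 14.8 and 18.1 CPM). The epithelial and fibroblast list summed to 304 to 313 CPM, 174 to 180 CPM and 101 to 103 CPM in the same order, nearly all of it VIM. Erythroid and megakaryocyte genes summed to 12.8 to 14.3 CPM, 11 to 11.7 CPM and 11.1 to 11.2 CPM. The part of these shifts in the differences that follow was not tested.

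The targeted transcript was low with both hairpins. SUV39H1 (hg19 chromosome X, 48553945 to 48567403, plus strand) had 18.2, 18.9 and 18.9 CPM with hairpin 2, 20.4, 19.8 and 23.2 CPM with hairpin 4 and 59.8, 56.5 and 58.3 CPM with the scrambled hairpin, or 32.0% and 36.3% of the scrambled level. All 3 hairpin 2 libraries lay below all 3 hairpin 4 libraries. The fitted log2 difference, hairpin 2 minus hairpin 4, was -0.18 ± 0.07 (SE of the fit), with a 95% interval of -0.32 to -0.04 (adjusted p = 0.0382 by the quasi-likelihood test of edgeR with Benjamini-Hochberg adjustment). The call did not hold without hairpin 2 replicate 1 (-0.16), 2 (-0.19) or 3 (-0.18) or without hairpin 4 replicate 3 (-0.12), and its adjusted p ranged from 0.00286 to 0.203 over the alternatives. The gene overlaps AF196970.3 on the opposite strand, which stood at 2.24, 3.39 and 9.98 CPM with hairpin 2, hairpin 4 and the scrambled hairpin, and the library kit does not mark strand.

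Of the 7 H3K9 methyltransferases tested, 4 (57.1%) were lower with hairpin 2 (SUV39H1, SUV39H2, EHMT1 and EHMT2), 1 (14.3%) was higher (SETDB2) and 2 did not pass. Over all genes tested, 22.0% were lower and 20.9% higher. SUV39H2 (chromosome 10, 14920819 to 14946314, plus strand) had 13.9, 13.3 and 13.2 CPM with hairpin 2, 21.0, 20.5 and 19.9 CPM with hairpin 4 and 30.1, 34.4 and 29.9 CPM with the scrambled hairpin. The groups did not overlap, and the difference of -0.60 ± 0.07 (adjusted p = 6.93e-08) left hairpin 2 at 42.9% and hairpin 4 at 65.2% of scrambled. SUV39H2 overlaps DCLRE1C on the opposite strand, which did not pass the test (0.05, adjusted p = 0.424). EHMT2 averaged 108 ± 2.21 CPM with hairpin 2, 128 ± 2.45 CPM with hairpin 4 and 144 ± 8.52 CPM with the scrambled hairpin (SD, n = 3 each), a difference of -0.24 ± 0.06. EHMT1 averaged 54.0 ± 0.570, 60.7 ± 2.52 and 84.5 ± 2.94 CPM in the same order (-0.17 ± 0.05). SETDB1, which trimethylates H3K9 at repeats with TRIM28, had overlapping groups at 59.9 and 62.6 CPM, with a 95% interval of -0.16 to 0.04 for the difference. SETDB2 was higher with hairpin 2, at 92.1 against 83.0 CPM (0.15 ± 0.06, adjusted p = 0.0406), a call lost with no filter on low counts (0.12) and without hairpin 2 replicate 1 (0.11) or 3 (0.15) or hairpin 4 replicate 1 (0.13), 2 (0.15) or 3 (0.13).

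**Figure D1:**
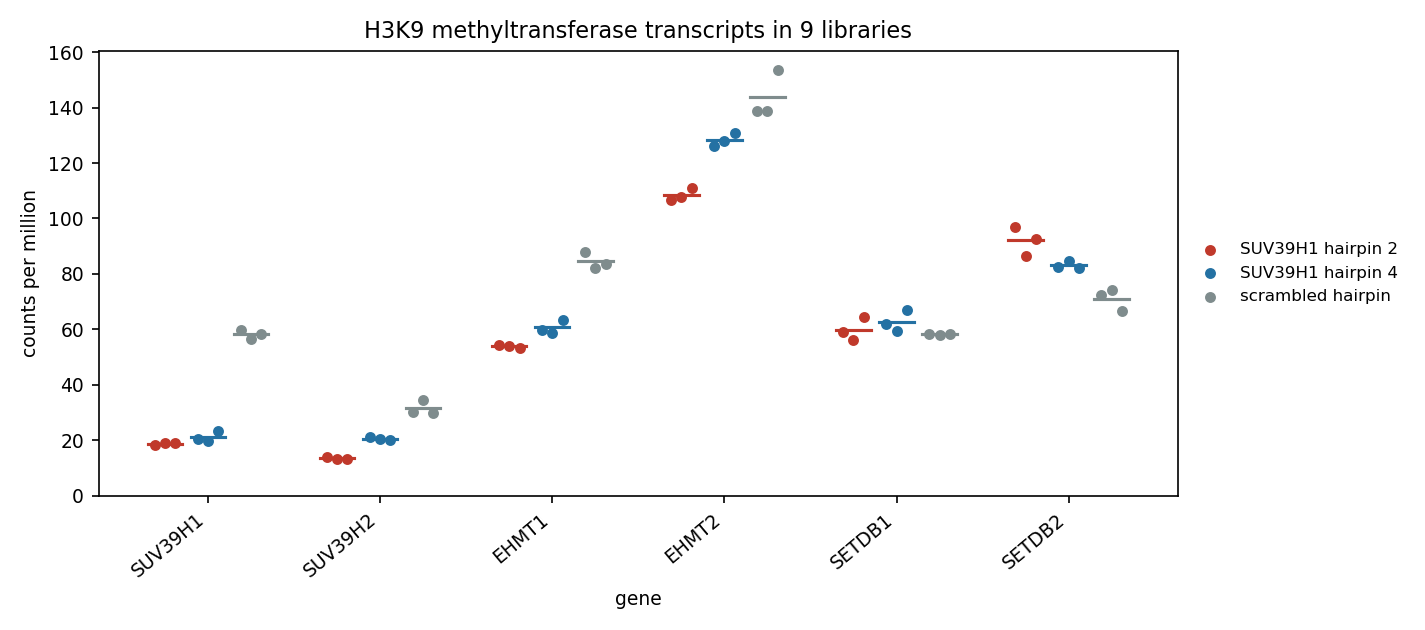
Levels of 6 H3K9 methyltransferase transcripts in CPM (linear axis from 0) in the 3 libraries of each group, with hairpin 2, hairpin 4 and the scrambled hairpin from left to right and a bar at each mean. SUV39H1 stands at 18.6 and 21.1 CPM with the hairpins against 58.2 CPM with the scrambled hairpin, and SUV39H2 shows the wider gap between hairpins, 13.5 against 20.5 CPM.

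Across all 20147 genes tested, 8645 (42.9%) were called different between the hairpins, 4207 (20.9%) higher and 4438 (22.0%) lower with hairpin 2. At a change of at least 2-fold the calls were 520 higher (2.58%) and 171 lower (0.849%). The median difference over all genes was -0.01 on the log2 scale. Against the scrambled hairpin, 13518 genes (67.1%) were called with hairpin 2 and 12279 (60.9%) with hairpin 4, and 2782 (13.8%) and 1441 (7.15%) were both called and at least 2-fold, in 2 comparisons that share their control libraries. The share called between the hairpins depended on level, from 16.8% of the 5037 genes with the lowest mean CPM to 58.6% of the 5037 with the highest. On chromosome 16, 11.9% of 1044 genes were higher and 30.1% lower, with a median of -0.09, and on chromosome 4 27.8% of 652 were higher and 19.5% lower. These are bulk samples, in which fewer cells of a type and less RNA per cell cannot be told apart.

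**Figure D2:**
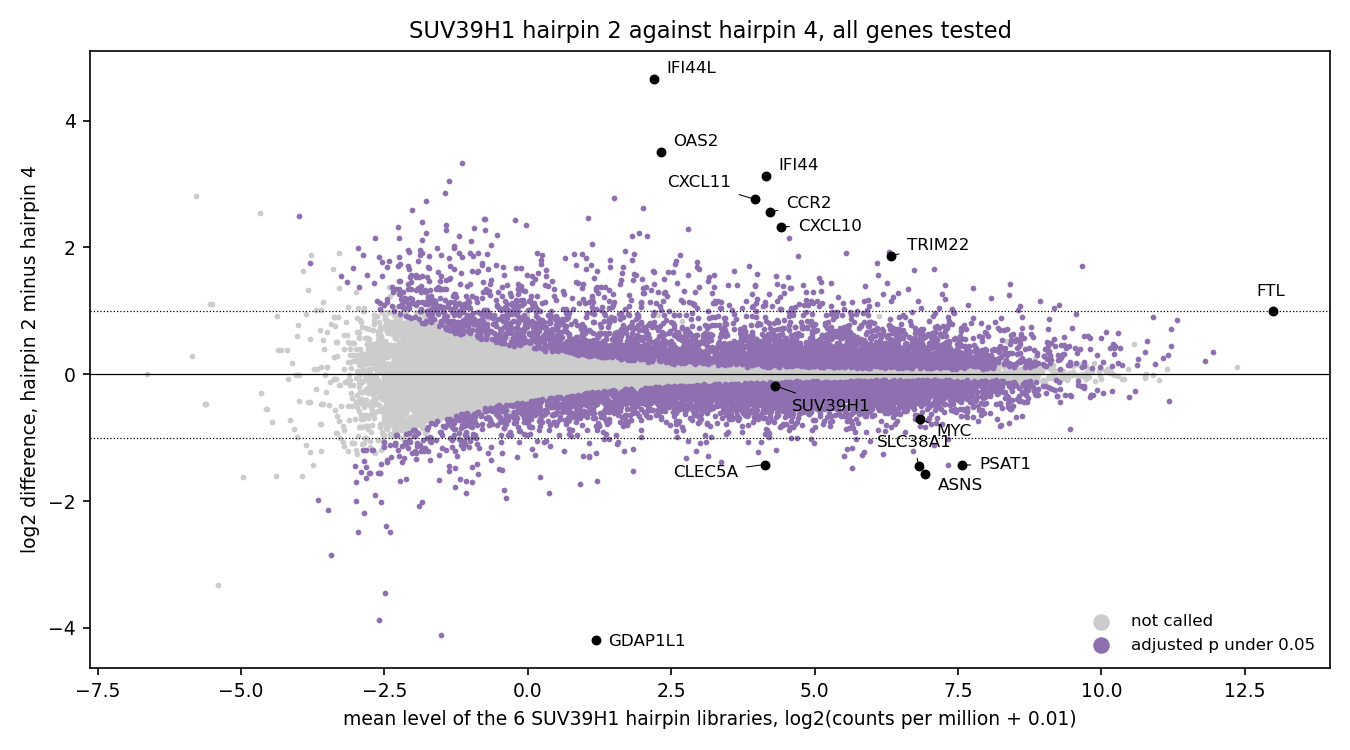
Log2 difference between hairpin 2 and hairpin 4 for each of 20147 genes, plotted against the mean level of the 6 libraries as log2(CPM + 0.01), with called genes in purple and dotted lines at a 2-fold change in either direction. IFI44L (4.66), OAS2 (3.50) and IFI44 (3.13) lie at the top, GDAP1L1 (-4.19) at the bottom, and SUV39H1 (-0.18) close to 0.

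Interferon-stimulated genes, which cells switch on once interferon binds its receptor, were higher with hairpin 2 almost throughout. Of 79 listed, 76 were tested, and 73 of these (96.1%) were called higher and 1 lower, against 20.9% and 22.0% of all genes. Their median difference was 0.98. The list's summed level was 9257 to 9383 CPM with hairpin 2, 4649 to 4684 CPM with hairpin 4 and 2546 to 2567 CPM with the scrambled hairpin.

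IFI44L had the largest difference of the genes named by rule. It had 9.03, 9.12 and 8.36 CPM with hairpin 2, 0.262, 0.384 and 0.407 CPM with hairpin 4 and 0, 0.0788 and 0.0491 CPM with the scrambled hairpin (chromosome 1, 79085607 to 79111830, plus strand), a 25.3-fold gap between the hairpins (4.66 ± 0.175, adjusted p = 1.57e-16). Its neighbour IFI44 (chromosome 1, 79115481 to 79129763, plus strand) had 31.9, 32.1 and 31.1 CPM with hairpin 2, 3.71, 3.44 and 3.73 CPM with hairpin 4 and 1.06, 1.14 and 1.01 CPM with the scrambled hairpin (3.13 ± 0.07, adjusted p = 5.89e-21). In both genes the hairpin 2 libraries formed a tight group far above the others, and the hairpin 4 libraries lay above the scrambled ones. OAS2, an enzyme that senses double-stranded RNA and makes oligoadenylates that activate RNase L, had 9.10, 9.21 and 9.04 CPM with hairpin 2, 0.699, 0.849 and 0.879 CPM with hairpin 4 and 0.241, 0.374 and 0.245 CPM with the scrambled hairpin (3.50 ± 0.12, adjusted p = 3.70e-18). It overlaps RP1-71H24.1 on the opposite strand, itself 1.78 higher. OAS1, of the same family, averaged 161, 51.1 and 10.2 CPM in that order (1.65 ± 0.05). IFI27, a mitochondrial interferon-induced protein, had 6.62, 7.14 and 6.83 CPM with hairpin 2, 0.874, 1.21 and 1.26 CPM with hairpin 4 and 0.332, 0.335 and 0.540 CPM with the scrambled hairpin (2.63 ± 0.10).

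The secreted chemokines CXCL10 and CXCL11 were higher with hairpin 2. CXCL10, a ligand of CXCR3 (chromosome 4, 76942273 to 76944650, minus strand), had 34.5, 37.3 and 34.8 CPM with hairpin 2, 7.40, 6.89 and 6.86 CPM with hairpin 4 and 6.52, 6.68 and 5.62 CPM with the scrambled hairpin. Hairpin 2 was 5.03-fold above hairpin 4 (2.33 ± 0.10, adjusted p = 1.26e-16), while hairpin 4 did not pass against the scrambled hairpin (0.17 ± 0.11, adjusted p = 0.204). CXCL11, a ligand of the same receptor, had 26.4, 26.9 and 27.5 CPM with hairpin 2, 3.65, 4.30 and 3.99 CPM with hairpin 4 and 2.78, 2.68 and 1.77 CPM with the scrambled hairpin (2.76 ± 0.11). Both lie inside the interval of ART3 on the opposite strand, which stood at 9.93, 2.70 and 9.63 CPM in the same order, so reads of the 3 genes cannot be told apart by strand. The guanylate-binding proteins GBP1 and GBP2, large GTPases that act on intracellular pathogens, were 2.46 and 2.06 higher. GBP2 averaged 3.49, 0.836 and 0.136 CPM with hairpin 2, hairpin 4 and the scrambled hairpin. AIM2, a sensor of cytosolic DNA, had 11.2, 12.7 and 10.5 CPM with hairpin 2, 2.36, 2.48 and 2.19 CPM with hairpin 4 and a mean of 1.32 CPM with the scrambled hairpin (2.28 ± 0.09).

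Regulators and effectors of the pathway lay in the same order. IRF7, the factor that amplifies interferon production, averaged 115 CPM with hairpin 2, 49.4 CPM with hairpin 4 and 11.4 CPM with the scrambled hairpin (1.22 ± 0.05). IRF9 differed less, at 40.5, 28.9 and 8.25 CPM (0.49 ± 0.04). TRIM22, an antiviral ubiquitin ligase that overlaps TRIM5 on the opposite strand, averaged 126, 34.5 and 9.42 CPM (1.87 ± 0.06). CMPK2, a nucleotide kinase that overlaps RSAD2 on the opposite strand, averaged 102, 34.6 and 12.9 CPM (1.56 ± 0.04), and ISG15, a ubiquitin-like modifier, 205, 64.7 and 28.3 CPM (1.66 ± 0.06). Not every member followed. MX2, which blocks nuclear import of retroviruses, had overlapping groups at 101 and 99.2 CPM (0.02 ± 0.04, adjusted p = 0.700), IFITM1 did not pass at 0.307 and 0.258 CPM, and SLFN11 was the member called lower (-0.11 ± 0.04), a call lost without hairpin 2 replicate 1, 2 or 3.

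Among 23 tested interferons, receptors and nucleic acid sensors, 12 were higher (52.2%) and 1 lower (4.35%), against 20.9% and 22.0% of all genes. Their median was 0.19. IFNB1, which encodes interferon beta, had 26, 24 and 30 counts with hairpin 2, 11, 12 and 6 counts with hairpin 4 and 5, 5 and 2 counts with the scrambled hairpin, and its difference was 1.86 ± 0.29 (adjusted p = 9.96e-06) at a level below 1 CPM. TLR3, an endosomal receptor for double-stranded RNA, averaged 1.30, 0.597 and 0.194 CPM in the same order (1.12 ± 0.17). SOCS1, the feedback inhibitor of JAK kinases, averaged 4.75, 1.98 and 1.01 CPM (1.26 ± 0.09). SAMHD1, a dNTP hydrolase, averaged 55.3, 28.1 and 9.86 CPM (0.98 ± 0.05). The receptor chain IFNAR2 was 0.48 ± 0.04 higher, and ADAR, which edits double-stranded RNA, 0.32 ± 0.04. The DNA sensor MB21D1 (cGAS) and its partner TMEM173 (STING) did not pass, at differences of -0.13 and -0.10, with levels of 34.0 and 37.2 CPM and 97.5 and 105 CPM.

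**Figure D3:**
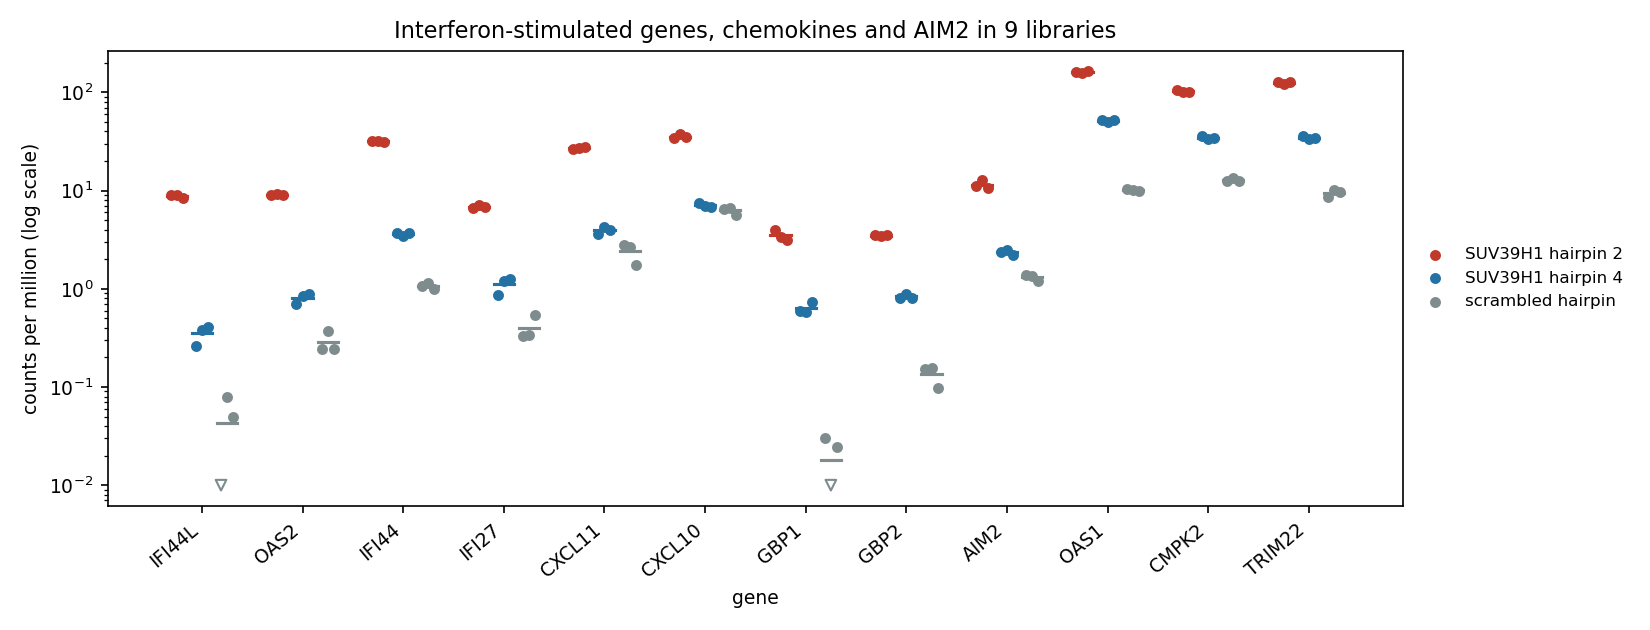
Levels in CPM (log axis) of 10 interferon-stimulated genes, CXCL11 and AIM2 in the 3 libraries of each group, with hairpin 2, hairpin 4 and the scrambled hairpin from left to right and a bar at each mean, and open triangles at 0.01 for libraries with 0 counts. Every gene shown has its hairpin 2 libraries above its hairpin 4 libraries, and CXCL10 has hairpin 4 (7.05 CPM) close to the scrambled level (6.27 CPM).

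The promoters of 3 of these genes are shown for their matches to the core of the interferon-stimulated response element, GAAA, any 2 bases and GAAA again, on either strand, which IRF factors are known to bind. The windows run from 250 bases before to 50 after the start of each gene in RefSeq (GRCh38.p14), are printed 5′ to 3′ on the gene's strand, and carry each match in capitals. The IFI44L window is chr1:78620198-78620497 (plus strand), IFI27 is chr14:94110486-94110785 (plus) and CXCL10 is chr4:76023448-76023747 (minus).
IFI44L: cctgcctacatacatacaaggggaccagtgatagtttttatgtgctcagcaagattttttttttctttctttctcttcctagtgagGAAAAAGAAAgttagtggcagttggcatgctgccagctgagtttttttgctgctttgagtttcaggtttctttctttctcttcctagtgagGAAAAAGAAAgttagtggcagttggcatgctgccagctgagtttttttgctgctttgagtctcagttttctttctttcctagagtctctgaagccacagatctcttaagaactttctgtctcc
IFI27: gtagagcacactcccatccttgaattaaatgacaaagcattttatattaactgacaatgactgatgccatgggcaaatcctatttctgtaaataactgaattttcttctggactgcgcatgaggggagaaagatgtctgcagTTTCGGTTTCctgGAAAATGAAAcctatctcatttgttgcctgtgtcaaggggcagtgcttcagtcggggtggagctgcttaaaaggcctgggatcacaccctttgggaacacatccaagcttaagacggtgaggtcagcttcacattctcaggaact
CXCL10: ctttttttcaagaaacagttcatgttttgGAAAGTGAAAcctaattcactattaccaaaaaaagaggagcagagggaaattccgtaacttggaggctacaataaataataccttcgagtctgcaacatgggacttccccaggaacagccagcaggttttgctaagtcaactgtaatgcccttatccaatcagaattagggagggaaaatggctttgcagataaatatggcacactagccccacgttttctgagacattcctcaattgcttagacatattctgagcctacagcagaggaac
IFI44L held 2 matches, starting 164 and 73 bases before the start. IFI27 held 2, starting 108 and 95 bases before the start, and CXCL10 held 1, at 221 bases. Over all 27305 promoters in the table, 3.65% held the core. Of the 15 genes with the largest higher values, 12 had a promoter there and 6 of those held it (IFI44L, IFI44, IFI27, GBP1, CXCL10 and AIM2), and of the 15 with the largest lower values, 13 had a promoter and 0 held it. Over the whole interferon list the check was void, because 56 of 76 symbols (73.7%) had a promoter, under the 80% set as the minimum. A match describes these letters only.

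Most genes that present antigen were higher with hairpin 2, where 20.9% of all genes were higher and 22.0% lower. Of 24 tested genes of MHC class I presentation, 18 were higher (75.0%) and 1, TAP2, lower, with a median of 0.33, and all 13 tested class II genes were higher, with a median of 0.64 and 0 lower (0 also at an unadjusted p under 0.05 by edgeR, and 0 by DESeq2). B2M, the shared class I light chain, had 3196, 3413 and 3278 CPM with hairpin 2, 1848, 1881 and 1751 CPM with hairpin 4 and 1125, 1080 and 968 CPM with the scrambled hairpin (0.85 ± 0.08). The peptide transporter TAP1 and the immunoproteasome subunit PSMB9, whose intervals overlap on opposite strands, were 0.70 and 0.78 higher, and the proteasome activator PSME2 0.44. In class II, the peptide-loading chains HLA-DMB and HLA-DMA were 1.26 and 0.74 higher, at 3.91 against 1.63 CPM and 17.1 against 10.2 CPM. HLA-DRB1 averaged 83.7, 47.8 and 36.4 CPM with hairpin 2, hairpin 4 and the scrambled hairpin (0.81 ± 0.06), and its near copy HLA-DRB5 was 0.81 higher. Reads of HLA paralogs may be shared, so single HLA values are uncertain. CIITA, the class II transactivator, differed by 0.19 ± 0.06, at 20.4, 17.8 and 18.6 CPM.

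Monocyte and macrophage markers were mostly higher with hairpin 2, with exceptions among the largest differences. Of 30 tested, 19 were higher (63.3%) and 5 lower (16.7%), against 20.9% and 22.0% of all genes, with a median of 0.46. The summed level was 5357 to 5392 CPM with hairpin 2, 3354 to 3416 CPM with hairpin 4 and 1974 to 2034 CPM with the scrambled hairpin. CCR2, the receptor that calls monocytes to CCL2, had 30.8, 31.7 and 32.5 CPM with hairpin 2, 4.95, 5.82 and 5.40 CPM with hairpin 4 and 1.33, 1.32 and 1.42 CPM with the scrambled hairpin (2.56 ± 0.07, adjusted p = 2.11e-20). TREM1, a receptor that amplifies inflammation, averaged 155, 69.6 and 41.0 CPM (1.15 ± 0.04), and ITGAM, the integrin chain CD11b, 271, 154 and 49.96 CPM (0.81 ± 0.05). CLEC5A, a lectin receptor that signals through DAP12, went against its list. It had 9.22, 9.49 and 9.70 CPM with hairpin 2, 24.1, 26.6 and 25.7 CPM with hairpin 4 and 87.1, 89.5 and 83.2 CPM with the scrambled hairpin (-1.42 ± 0.06), and it overlaps MGAM on the opposite strand, itself lower (-0.61). CD36, a scavenger receptor for lipids, had 113, 111 and 113 CPM with hairpin 2, 42.1, 41.9 and 40.3 CPM with hairpin 4 and 118, 124 and 107 CPM with the scrambled hairpin (1.44 ± 0.06). Here hairpin 2 lay among the scrambled libraries and hairpin 4 below both. Granule and progenitor genes showed no common direction, with 8 of 22 higher (36.4%), 3 lower (13.6%) and a median of 0.02. The neutrophil protease ELANE was 0.59 ± 0.06 higher, its relative CTSG lower at 784 against 1004 CPM (-0.36 ± 0.04), and the granulocyte factor CEBPE 0.38 higher.

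Inflammatory genes of the NF-kB pathway were more often higher than lower with hairpin 2. Of 29 tested, 15 were higher (51.7%) and 5 lower (17.2%), with a median of 0.24. The feedback inhibitors TNFAIP3 (146, 97.5 and 57.6 CPM with hairpin 2, hairpin 4 and the scrambled hairpin) and NFKBIE (215, 155 and 101 CPM) were 0.58 and 0.47 higher, BIRC3 1.09 and IL1B 0.54. TNF was lower, at 19.4, 29.9 and 30.7 CPM (-0.62 ± 0.08), and so was CCL4 (-0.54), while CCL3, its neighbour in the chemokine cluster, was 0.52 higher. Of 24 immediate early genes, 10 were higher (41.7%) and 4 lower (16.7%), against 20.9% and 22.0% of all genes. FOSL2, an AP-1 subunit, averaged 195, 94.3 and 43.5 CPM (1.05 ± 0.04), FOS was 0.60 and KLF6 0.42 higher. The count of 10 was 6 with no filter on low counts, where 7 were lower, and 6 without hairpin 4 replicate 1.

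Several of the largest higher genes lay outside these lists. SLCO2B1, an organic anion transporter, had 39.7, 37.2 and 38.6 CPM with hairpin 2, 8.48, 8.73 and 8.81 CPM with hairpin 4 and 0.845, 0.906 and 1.03 CPM with the scrambled hairpin (2.15 ± 0.06). P2RY13, a receptor for ADP, averaged 4.95, 0.712 and 0.0906 CPM (2.79 ± 0.15) and overlaps MED12L on the opposite strand, which was lower (-0.31). STAP1, an adaptor of B-cell and myeloid signalling, averaged 6.34, 1.34 and 1.03 CPM (2.23 ± 0.14). SPATA12, which overlaps ARHGEF3, and CHRNA6, a nicotinic receptor subunit, were 2.18 and 2.17 higher at 6.93 against 1.52 CPM and 5.72 against 1.27 CPM.

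Genes of growth were lower with hairpin 2. Of 34 tested MYC targets and ribosome biogenesis genes, 31 were lower (91.2%) and 1, MAX, higher, with a median of -0.36. The summed level was 4472 to 4564 CPM with hairpin 2, 5348 to 5443 CPM with hairpin 4 and 9431 to 9643 CPM with the scrambled hairpin. MYC itself had 88.1, 86.6 and 84.6 CPM with hairpin 2, 144, 139 and 142 CPM with hairpin 4 and 284, 273 and 292 CPM with the scrambled hairpin (-0.71 ± 0.04, adjusted p = 3.96e-13). ODC1, the first enzyme of polyamine synthesis and a known MYC target, averaged 194, 288 and 522 CPM (-0.57 ± 0.04), and the nucleolar protein NOP56 277, 359 and 538 CPM (-0.37 ± 0.03). The abundant nucleolar proteins NPM1 and NCL did not pass, with 711 against 718 CPM and 766 against 769 CPM. Among 46 cell cycle genes, 23 were lower (50%) and 5 higher (10.9%), against 22.0% and 20.9% of all genes. BIRC5, the mitotic survivin, averaged 16.5, 30.4 and 39.8 CPM (-0.88 ± 0.05), and CDC6, which loads the replicative helicase, 42.8, 66.1 and 100 CPM (-0.62 ± 0.04). CCND3, a D-type cyclin, was higher, at 619 against 453 CPM (0.45 ± 0.04), and the count of 5 higher was 3 without hairpin 4 replicate 3. Mitotic genes such as PLK1, CCNB1 and AURKA did not pass.

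Of 26 p53 target and arrest genes, 11 were higher (42.3%) and 4 lower (15.4%), against 20.9% and 22.0% of all genes. CDKN1A, the CDK inhibitor p21, had 84.1, 83.7 and 83.2 CPM with hairpin 2, 38.4, 38.8 and 41.7 CPM with hairpin 4 and 11.5, 12.0 and 12.2 CPM with the scrambled hairpin (1.08 ± 0.04). BTG2, an antiproliferative p53 target, averaged 40.4, 15.2 and 9.49 CPM (1.41 ± 0.05), and the INK4 inhibitor CDKN2D 79.4, 52.4 and 27.0 CPM (0.60 ± 0.04). MDM2, a core p53 target, did not pass (0.01). Of 27 apoptosis regulators, 15 were higher (55.6%) and 2 lower (7.41%). Among the higher were the inhibitors BIRC3 (1.09), BCL2A1 (0.97) and XIAP (0.68). BCL2A1 averaged 75.6, 38.7 and 45.2 CPM with hairpin 2, hairpin 4 and the scrambled hairpin.

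The amino acid and endoplasmic reticulum stress genes separated the hairpins in the other direction. When amino acids run short, ATF4 raises enzymes of serine and asparagine synthesis and amino acid transporters. Of 31 tested genes, 19 were lower with hairpin 2 (61.3%) and 7 higher (22.6%), against 22.0% and 20.9% of all genes. Their median was -0.24, and against the scrambled hairpin the medians were -0.23 for hairpin 2 and 0.17 for hairpin 4. The summed level was 4695 to 4738 CPM with hairpin 2, 5523 to 5605 CPM with hairpin 4 and 5521 to 5619 CPM with the scrambled hairpin.

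ASNS, asparagine synthetase (chromosome 7, 97481430 to 97501854, minus strand), had 61.7, 58.3 and 63.7 CPM with hairpin 2, 182, 181 and 183 CPM with hairpin 4 and 86.1, 87.2 and 83.8 CPM with the scrambled hairpin. The scrambled libraries lay between the hairpins, with hairpin 2 below them (-0.48 ± 0.04) and hairpin 4 above (1.09 ± 0.04), and the hairpins differed by -1.57 ± 0.04 (adjusted p = 1.28e-20). PSAT1, in serine synthesis (chromosome 9, 80912059 to 80945009, plus strand), had 106, 102 and 102 CPM with hairpin 2, 290, 278 and 268 CPM with hairpin 4 and 172, 172 and 156 CPM with the scrambled hairpin. Its scrambled libraries also lay between the hairpins, with differences of -0.69 ± 0.05 for hairpin 2 and 0.74 ± 0.05 for hairpin 4, and the hairpins differed by -1.43 ± 0.05. PHGDH, the first enzyme of that pathway, averaged 172, 287 and 202 CPM (-0.74 ± 0.06), and CTH, which makes cysteine, 5.60, 11.7 and 8.49 CPM (-1.06 ± 0.07). SLC38A1, a glutamine transporter, had 62.0, 59.1 and 59.9 CPM with hairpin 2, 165, 164 and 164 CPM with hairpin 4 and 170, 168 and 156 CPM with the scrambled hairpin (-1.44 ± 0.05). Hairpin 4 stayed among the scrambled libraries there. TRIB3, a feedback pseudokinase, averaged 95.5, 164 and 155 CPM (-0.78 ± 0.04). ATF4 differed little at the RNA level, at 232, 256 and 331 CPM (-0.14 ± 0.04). Of the 7 higher members, SLC7A11, the cystine transporter, averaged 80.4, 42.2 and 20.6 CPM (0.93 ± 0.05), and the chaperone DNAJB9 was 0.54 higher.

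The ASNS promoter (RefSeq, GRCh38.p14, chr7:97872359-97872658, minus strand, 5′ to 3′) is shown because the gene is the textbook target of this response. The capitals mark a match to the core of the amino acid response element, TGATGNAA on either strand, which starts 68 bases before the gene's start.
ASNS: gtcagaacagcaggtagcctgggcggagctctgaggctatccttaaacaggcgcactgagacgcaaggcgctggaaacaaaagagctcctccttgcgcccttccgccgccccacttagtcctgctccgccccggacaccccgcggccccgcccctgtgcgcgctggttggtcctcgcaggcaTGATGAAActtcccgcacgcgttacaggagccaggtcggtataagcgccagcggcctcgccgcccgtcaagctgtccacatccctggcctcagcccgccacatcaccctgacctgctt
The core was in 3.67% of all 27305 promoters and in 4 of the 27 stress genes with a promoter in the table (14.8%, of 31 tested). Among the 15 largest lower genes, 2 of 13 with a promoter held it, ASNS and SLC38A1. PSAT1 had no match in its window.

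GDAP1L1 was the most separated of the lower genes. This paralog of the mitochondrial protein GDAP1 (chromosome 20, 42875887 to 42909013, plus strand) had 0.313, 0.122 and 0.243 CPM with hairpin 2, 4.21, 4.45 and 4.29 CPM with hairpin 4 and 0.543, 0.473 and 0.540 CPM with the scrambled hairpin. Hairpin 4 was 18.3-fold above hairpin 2 (-4.19 ± 0.165, adjusted p = 5.87e-17) and stood alone at this level. KCNG1, a potassium channel subunit, averaged 1.84, 5.30 and 3.54 CPM (-1.53 ± 0.09). IL6R, the interleukin-6 receptor, had 86.5, 85.2 and 87.5 CPM with hairpin 2, 235, 228 and 234 CPM with hairpin 4 and 332, 333 and 346 CPM with the scrambled hairpin (-1.43 ± 0.03). The remaining large lower genes lay in the order of IL6R or with hairpin 4 near the scrambled level. Of the latter, SERPINH1 with hairpin 4 was called above the scrambled hairpin (0.19 ± 0.07). That call was lost with DESeq2 (0.17) and without hairpin 4 replicate 3 (0.17) or scrambled replicate 1 (0.18) or 2 (0.16). PIGK, a subunit of the GPI transamidase, averaged 26.4, 73.7 and 86.5 CPM (-1.48 ± 0.08), and the kinesin motor KIF3B 26.4, 64.9 and 87.9 CPM (-1.29 ± 0.05). MAP7D2, HRSP12, PTPRU, FGFR3, SIGLEC8 and SERPINH1 were lower by differences of -1.68 to -1.28. RAB27B, a GTPase of secretory granules, ran the other way. It had 76.1, 75.4 and 69.5 CPM with hairpin 2, 19.7, 20.5 and 18.7 CPM with hairpin 4 and 30.8, 30.2 and 26.3 CPM with the scrambled hairpin (1.91 ± 0.08), above the scrambled hairpin with hairpin 2 and below it with hairpin 4.

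**Figure D4:**
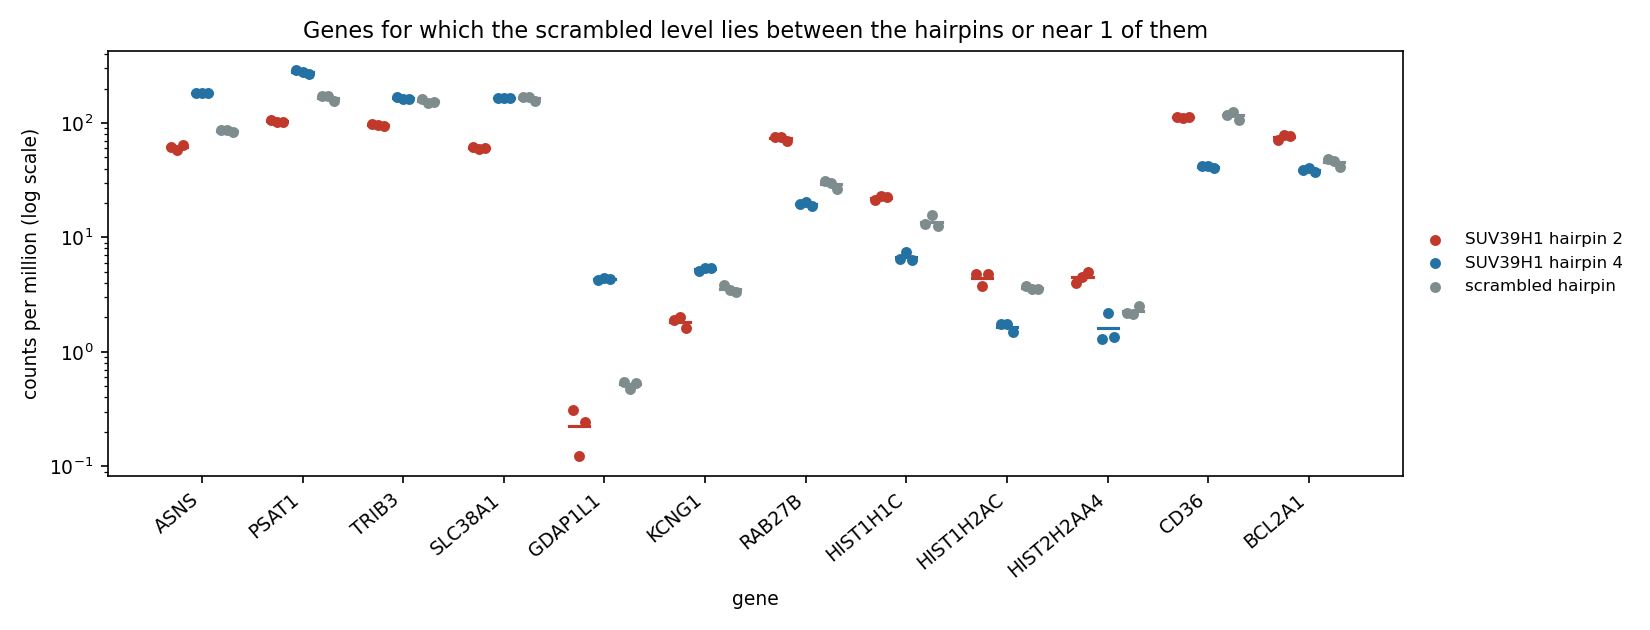
Levels in CPM (log axis) of 12 genes in the 3 libraries of each group, with hairpin 2, hairpin 4 and the scrambled hairpin from left to right and a bar at each mean. For ASNS, PSAT1, GDAP1L1 and KCNG1 the scrambled libraries lie above hairpin 2 and below hairpin 4, for RAB27B and HIST1H1C below hairpin 2 and above hairpin 4, for SLC38A1 and TRIB3 at the level of hairpin 4 and for CD36 at that of hairpin 2.

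The list of 25 heat shock and oxidative stress genes had 10 higher (40%) and 8 lower (32%), against 20.9% and 22.0% of all genes, with a median of 0.03. FTL, the light chain of ferritin, had 10740, 11220 and 10770 CPM with hairpin 2, 5485, 5385 and 5451 CPM with hairpin 4 and 6235, 6249 and 6472 CPM with the scrambled hairpin (1.00 ± 0.03). NQO1 and SRXN1, antioxidant targets of NRF2, averaged 227, 111 and 94.1 CPM (1.03 ± 0.04) and 84.7, 37.8 and 28.5 CPM (1.16 ± 0.04). HMOX1, heme oxygenase, was lower with hairpin 2 at 75.1, 91.1 and 8.81 CPM (-0.28 ± 0.06), and the chaperone genes DNAJB1 (-0.32) and HSP90AA1 (-0.27) were lower too. FTH1, the heavy chain of ferritin, averaged 834, 389 and 234 CPM (1.10 ± 0.07). Of 28 hypoxia and glycolysis genes, 14 were higher (50%) and 3 lower (10.7%). PFKFB4 and BNIP3L were 0.73 higher each and NDRG1 0.65, whereas VEGFA was lower, at 277, 404 and 269 CPM (-0.54 ± 0.03).

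Over all genes, 20.9% were higher and 22.0% lower. Lysosome and autophagy genes were mostly higher, 20 of 34 (58.8%) against 5 lower (14.7%), with a median of 0.20. The lower count was 8 with no filter on low counts and with the 6 libraries fitted alone. GPNMB, a lysosomal glycoprotein of macrophages, averaged 699, 381 and 227 CPM with hairpin 2, hairpin 4 and the scrambled hairpin (0.88 ± 0.03), PSAP, the precursor of the saposins, 1219, 820 and 467 CPM (0.57 ± 0.04), and the autophagy protein GABARAPL1 18.2, 9.66 and 4.12 CPM (0.92 ± 0.05). Sterol and fatty acid synthesis had 10 of 29 lower (34.5%) and 4 higher, with CYP51A1 (-0.59), SREBF1 (-0.47) and ACLY (-0.27) among them and a median of 0.03. Of 13 lipid efflux genes, 5 were higher (38.5%) and 2 lower (15.4%), and PLIN2, the lipid droplet coat, averaged 451, 314 and 71.7 CPM (0.52 ± 0.04). The nuclear-encoded respiratory chain had 10 of 38 higher (26.3%) and 6 lower, near the shares of all genes, with a median of 0.01. The succinate dehydrogenase subunits went apart, SDHB at -0.56 ± 0.04 and SDHC at 0.48 ± 0.04. The count of 10 was 4 without hairpin 2 replicate 2 or hairpin 4 replicate 3 and 6 without hairpin 4 replicate 1.

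**Figure D5:**
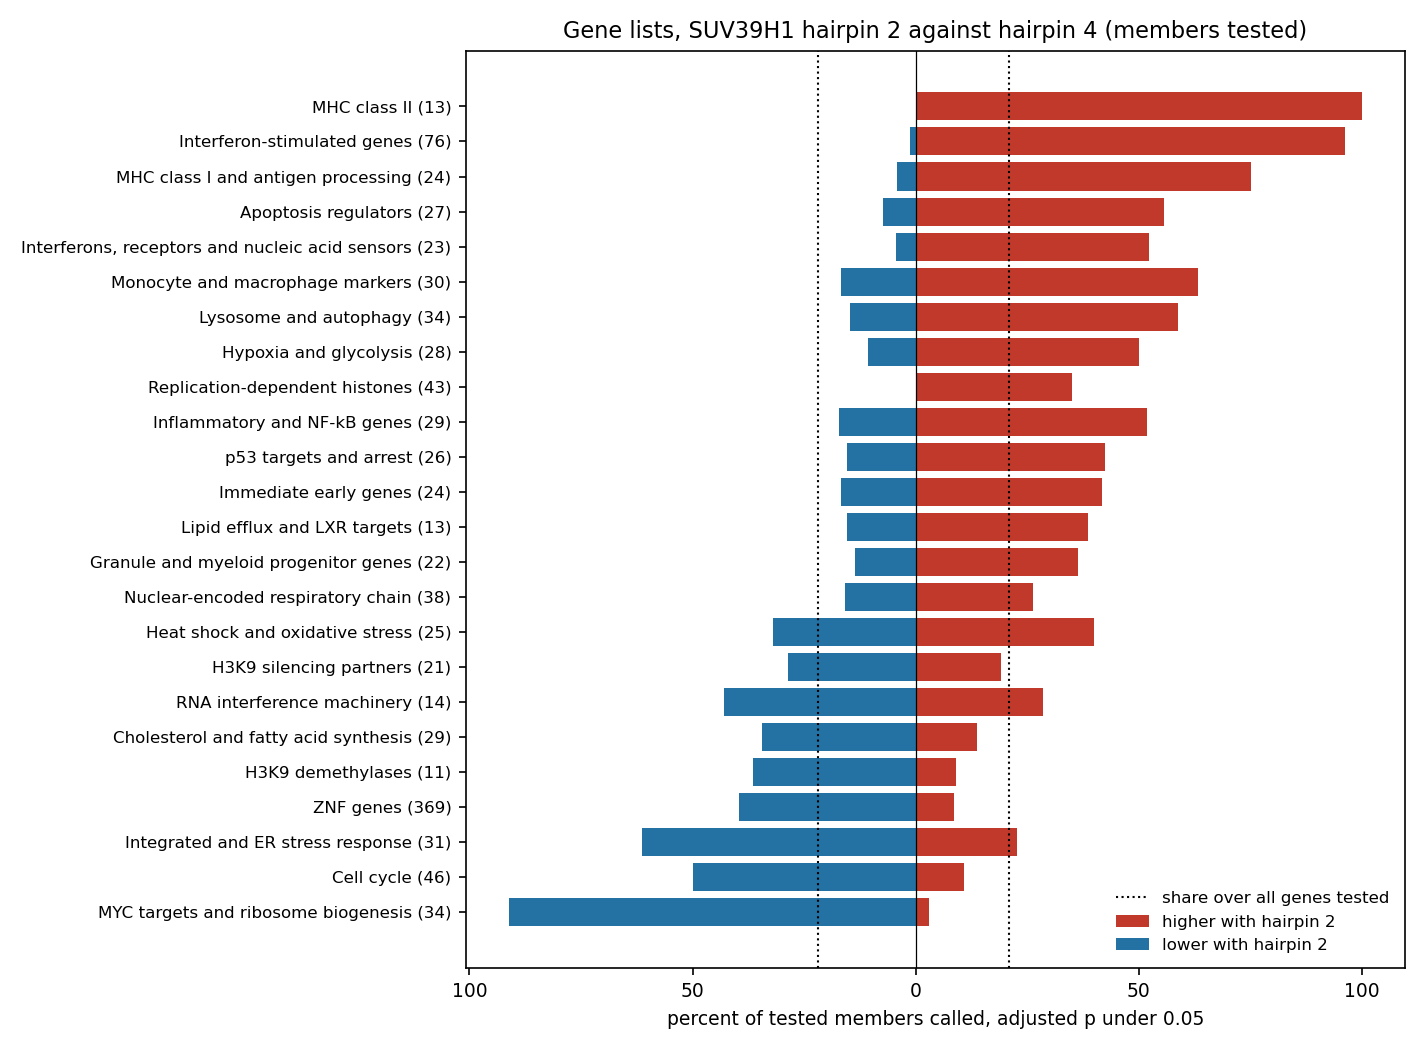
Percent of the tested members of the larger gene lists called higher (to the right) or lower (to the left) with hairpin 2 than with hairpin 4, with the number tested in brackets and dotted lines at the shares over all genes, 20.9% and 22.0%. The H3K9 methyltransferase, lymphoid, epithelial and fibroblast, erythroid and megakaryocyte, and germline lists, with 2 to 7 tested members, are not drawn. MHC class II (100% higher) and interferon-stimulated genes (96.1% higher) lie at the top, and MYC targets and ribosome biogenesis (91.2% lower) at the bottom.

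Chromatin genes are the last group of transcripts, again beside shares of 20.9% higher and 22.0% lower over all genes. Of 43 tested replication-dependent histone genes, whose mRNAs mostly end in a stem-loop instead of a poly(A) tail, 15 were higher with hairpin 2 (34.9%), with a median of 0.63 and 0 lower (0 also at an unadjusted p under 0.05 by edgeR, and 0 by DESeq2). Without hairpin 4 replicate 2 the count was 27. The list's summed level was low and varied within groups, at 67.0 to 93.4 CPM with hairpin 2, 30.6 to 48.2 CPM with hairpin 4 and 46.2 to 53.1 CPM with the scrambled hairpin. How far the libraries captured mRNAs without a poly(A) tail was not tested, so these counts need not follow the total histone mRNA. HIST1H1C, a linker histone, had 21.2, 22.9 and 22.4 CPM with hairpin 2, 6.45, 7.47 and 6.35 CPM with hairpin 4 and 13.1, 15.6 and 12.6 CPM with the scrambled hairpin (1.71 ± 0.08). It was above the scrambled hairpin with hairpin 2 (0.68 ± 0.07) and below it with hairpin 4 (-1.03 ± 0.08). HIST1H2AC averaged 4.43, 1.66 and 3.59 CPM (1.42 ± 0.13) and HIST2H2AA4 4.50, 1.61 and 2.29 CPM (1.49 ± 0.13). Histone genes are near copies, so reads may be shared between them, as for HIST2H2AA3 and HIST2H2AA4.

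Of 369 tested ZNF genes, many of which encode KRAB zinc finger repressors that guide H3K9 methylation to repeats, 146 were lower with hairpin 2 (39.6%) and 32 higher (8.67%), with a median of -0.13. On chromosome 19, where these genes lie in clusters, 76 of 161 were lower and 3 higher (median -0.22), and elsewhere 70 of 208 were lower and 29 higher (median -0.07). ZNF768 averaged 57.8, 103 and 100 CPM with hairpin 2, hairpin 4 and the scrambled hairpin (-0.83 ± 0.04), and ZNF614 15.1, 27.0 and 35.7 CPM (-0.84 ± 0.07). Among 21 partners of H3K9 silencing, 6 were lower (28.6%) and 4 higher (19%), near the shares of all genes (22.0% and 20.9%). The members named next are among the called ones of smallest p, and all are lower. DNMT1, the maintenance DNA methyltransferase, averaged 271, 388 and 418 CPM (-0.52 ± 0.05), and UHRF1, which recruits it, 104, 142 and 162 CPM (-0.46 ± 0.05). FAM208A, the HUSH subunit TASOR, was -0.35 ± 0.04. Of 11 H3K9 demethylases, 4 were lower (36.4%, against 22.0% of all genes). JMJD1C was the 1 called higher (9.09%, against 20.9%), at 58.0, 38.8 and 34.1 CPM (0.58 ± 0.05). The 4 lower were PHF8, KDM4C, KDM4A and KDM4B, and 7 were lower without hairpin 4 replicate 2. Among 14 genes of the RNA interference machinery, which both hairpins pass through, 6 were lower (42.9%) and 4 higher (28.6%), against 22.0% and 20.9% of all genes. AGO1 was lower (-0.46 ± 0.05), AGO4 higher (0.50 ± 0.04), and the exporter XPO5 lower at 283, 365 and 523 CPM (-0.36 ± 0.04), while DICER1 and AGO2 did not pass.

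Repeats are the other class of transcripts that H3K9 methylation is known to hold down. Counts on repeats were 73438, 72198 and 76352 in CPM of the gene total with hairpin 2, 77383, 78352 and 77859 with hairpin 4 and 56300, 58463 and 58069 with the scrambled hairpin. On this measure, which leaves out the TMM factors, the hairpin groups did not overlap and differed by -3869. An exact permutation test gave p = 0.1 (2-sided), the smallest that 3 against 3 allows. The TMM factors were 1.029 to 1.039 with hairpin 2 and 1.058 to 1.067 with hairpin 4. Dividing by them would narrow the gap and make the groups overlap, and no test was run on that scale. Of 929 repeat names tested, 172 (18.5%) were called, 86 higher (9.26%) and 86 lower (9.26%), and 4 (0.431%) changed at least 2-fold. Those 4, named after their values were seen, were HERVK11D-int (higher) and Eulor9A, MER123 and MLT1E3-int (lower), all too low to be named by rule. Against the scrambled hairpin, 653 names (70.3%) were higher and 59 (6.35%) lower with hairpin 2, and 694 (74.7%) higher and 45 (4.84%) lower with hairpin 4. With the repeat table's own scaling the split was 118 higher and 74 lower, or 61.5% of calls higher, where the split above is even. Without hairpin 2 replicate 1 or 2 the lower calls were 34 or 46, and without hairpin 4 replicate 1 the higher calls were 52. FAM, the fossil Alu monomer, had the largest difference among higher repeats above the level set for naming, with 347, 349 and 367 CPM with hairpin 2, 214, 211 and 208 CPM with hairpin 4 and 140, 139 and 141 CPM with the scrambled hairpin (0.75 ± 0.04, adjusted p = 3.63e-15). Next were MER107 (0.61), the retroviral interior MER34B-int (0.58) and the LTRs LTR54, MER51C and LTR90A (0.54, 0.53 and 0.53). SST1, a satellite, was lowest, with 59.6, 59.5 and 68.9 CPM with hairpin 2, 103, 110 and 119 CPM with hairpin 4 and 146, 152 and 161 CPM with the scrambled hairpin (-0.82 ± 0.06). HERVFH21-int averaged 3.73, 5.71 and 2.25 CPM (-0.60 ± 0.09) and the DNA transposon MER63C 18.6, 26.1 and 26.4 CPM (-0.49 ± 0.05).

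By family, few repeats passed. The shares over all 929 names were 9.26% higher and 9.26% lower. None of the 18 L1HS and L1PA names was called by edgeR, with 2 higher at an unadjusted p under 0.05 and 1 higher by DESeq2, and with the repeat table's own scaling 3 were higher. None of the 8 LTR12 and HERV9 names was called either, with 1 higher and 1 lower at an unadjusted p under 0.05 and 0 by DESeq2. Of 36 Alu names, 10 were lower (27.8%), by differences of -0.29 to -0.10, and 0 higher, which was also 0 at an unadjusted p under 0.05 by edgeR and 0 by DESeq2. That count of 10 was 0 without hairpin 2 replicate 1, 1 without hairpin 2 replicate 2, 3 without hairpin 4 replicate 1 and 2 without hairpin 4 replicate 3. The 77 THE1, MST and MLT1 names had 11 higher (14.3%) and 5 lower (6.49%), and the 91 DNA transposon names 12 lower (13.2%) and 4 higher (4.4%). Those 12 were 6 without hairpin 2 replicate 1 and 5 without hairpin 2 replicate 2, and the 4 were 1 or 2 without any 1 of the 6 libraries. Copies of a repeat family share reads, and whether reads in repeats inside genes were counted is not given in the sources used here.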

How the data were processed

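RNA was extracted with the RNeasy kit and sequencing libraries came from the TruSeq RNA v2 chemistry, per the labels' protocols. The authors deposited raw counts per gene (55773 names) and per repeat name (992 names), for which the submitters' processing notes name STAR, featureCounts and hg19, with versions not given in the sources used here. Counts were fitted as deposited with edgeR 4.0.16 in R 4.3.3 (filterByExpr with a minimum count of 10 and a minimum total of 15, TMM scaling, quasi-likelihood test, all 24 libraries, 1 mean for each of 8 groups of 3). In the fit, repeat names were scaled by gene totals and the gene TMM factors. A feature was called at a 2-sided Benjamini-Hochberg adjusted p under 0.05 over all features tested, and all adjusted p-values come from this fit. CPM are TMM-scaled, except for the total counts on repeats, and differences are fitted log2 values with their SE, hairpin 2 minus hairpin 4. Depth is given by the total counts, and the biological coefficient of variation was 4.63%. Replicates of a group differed by more than sampling noise (chi-square per gene 2.08 to 8.21). The fit was tested on simulated data.

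The members and lists were chosen with earlier results of these data known. Genes named by rule were 6 H3K9 methyltransferases, the 15 largest called differences in each direction (mean of at least 2 CPM, libraries not overlapping, no clone-based symbol), in each list with 3 or more called members the 4 of smallest p, up to 4 genes in each direction on opposite sides of the scrambled level, and 8 repeats in each direction. Other list members named were chosen after their values were seen. Alternatives were RLE scaling, no filter, DESeq2 1.42.0, fewer libraries in the fit, a replicate block, the repeat table's own scaling and leaving out each library. Values of 3 listed genes are not reported here.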

Additional observations from a re-analysis of the deposited data

Results flagged for a closer look

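The rule took up to 4 genes in each direction, by the size of the difference between the hairpins, for which the hairpins lay on opposite sides of the scrambled level with each side called. The 8 below are therefore not all such genes, and FTL and XIAP, for example, were also called on both sides. The difference between the hairpins was itself tested in edgeR's quasi-likelihood fit. Higher with hairpin 2 than with hairpin 4 were RAB27B by 1.91 (log2; 1.34 for hairpin 2 and -0.57 for hairpin 4 against the scrambled hairpin), HIST1H1C by 1.71 (0.68 and -1.03), HIST2H2AA4 by 1.49 (0.98 and -0.51) and HIST1H2AC by 1.42 (0.32 and -1.10). Lower were GDAP1L1 at -4.19 (-1.13 and 3.06), ASNS at -1.57 (-0.48 and 1.09), KCNG1 at -1.53 (-0.95 and 0.58) and PSAT1 at -1.43 (-0.69 and 0.74). These genes were selected for that pattern. The call of HIST1H2AC for hairpin 2 against the scrambled hairpin was lost with DESeq2 (0.30) and without hairpin 2 replicate 1 (0.26) or 3 (0.26) or scrambled replicate 2 (0.30) or 3 (0.30), and that of HIST2H2AA4 for hairpin 4 without hairpin 4 replicate 1 (-0.35).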

How the results depend on the processing

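Among features named by rule and called between the hairpins, 125 of 127 genes and 13 of 16 repeats kept their direction and call under every alternative run. Most of these features were chosen for a large difference or a small p in this same fit, so their stability does not speak for the other calls. The gene calls were 3934 higher and 3999 lower with DESeq2, and 3512 to 3789 higher and 3813 to 4361 lower on leaving out 1 library. The SUV39H1 difference ranged from -0.24 to -0.12 without 1 library, and the call was lost in 4 of those fits. Repeat calls ranged from 52 to 69 higher and from 34 to 78 lower. With the repeat table's own scaling, repeats called against the scrambled hairpin were 256 higher and 221 lower with hairpin 2, against 653 and 59, and 199 and 188 with hairpin 4, against 694 and 45, since that scaling removes a shift shared by all repeats. The difference in counts on repeats in CPM of the gene total, which leaves out the TMM factors, ranged from -5047 to -2970 without 1 library.

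Signs close to 0 reversed: SETDB1 with hairpin 2 against the scrambled hairpin without hairpin 2 replicate 3 (-0.021, up to 0.081 without another library), SLC38A1 with hairpin 4 against the scrambled hairpin with no filter (0.0090) and on leaving out a library (-0.046 to 0.019), and the medians of granule genes (-0.012 with no filter, -0.029 to 0.056 without 1 library), heat shock and oxidative stress genes (-0.0039 with no filter, -0.0090 to 0.066 without 1 library) and lipid efflux genes (-0.030 to 0.16 without 1 library). The cause was not tested. Replicate numbers were not used to pair the samples in the main fit. Deviations of same-numbered libraries correlated at -0.0072 to 0.10 between the hairpins, at -0.0072 to 0.074 for hairpin 2 against the scrambled hairpin and at 0.014 to 0.14 for hairpin 4 against it. In none of the 3 comparisons was every pair over 0.1, which does not exclude a weak pairing. With the replicate block the gene calls were 4435 higher and 4664 lower, the repeat calls 95 and 95, and the SUV39H1 difference -0.18. With 3 libraries a group the precision of genes near 1 CPM is limited by counting.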
